A study of Homo sapiens with 15 samples.

Results

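The genes described here are 9 that write, read or erase methylation of cytosine in DNA: DNMT1, DNMT3A, DNMT3B, UHRF1, TET1, TET2, TET3, TDG and MBD2. They were taken by name, because the study follows methylation and hydroxymethylation of the PAX5 promoter in prostate cancer cells. No measured value was used as a rule to choose them, but earlier results of these data were known. All 9 were found among the 58302 genes of the deposited tables. RNA-seq libraries are labelled for 15 samples in 5 groups, and the counts used below are those of the 3 libraries from C4-2B. C4-2B is an established human prostate adenocarcinoma line derived from LNCaP, labelled wild type and grown in RPMI with fetal bovine serum, with no drug or siRNA in the labels. The DKD and ER groups, treated with a scrambled control or with siPax5, were not analysed here, so no comparison between cell lines or treatments was made. The results therefore describe the levels in 1 adenocarcinoma line. The study describes its experiments as done in independent replicates, but the labels do not tie the 3 libraries to separate cultures, so p-values measure only the spread between these libraries, which may be technical.

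DNA methylation in mammals sits mostly on the cytosine of CpG, a cytosine followed by a guanine. DNMT3A and DNMT3B set new methyl groups, and DNMT1 copies existing ones to the new strand after replication, guided by UHRF1. The TET enzymes oxidise methylcytosine to hydroxymethylcytosine and further forms, TDG cuts out the most oxidised of these for repair, and MBD2 binds methylated CpG and recruits the NuRD repressor complex. In prostate cancer these genes are studied because promoter methylation silences lineage and tumour suppressor genes.

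To show the sequence on which these enzymes act and the control regions of the members themselves, the 250 bases before the start site of the MANE Select transcript (1 agreed reference transcript a gene) were read from GRCh38. Those of PAX5, the locus of the study, and of the members with the highest and the lowest level, DNMT1 and TET1, are given 5′ to 3′ on the gene's strand. Capitals mark each CpG.
PAX5 (chr9:37034269-37034518, minus strand): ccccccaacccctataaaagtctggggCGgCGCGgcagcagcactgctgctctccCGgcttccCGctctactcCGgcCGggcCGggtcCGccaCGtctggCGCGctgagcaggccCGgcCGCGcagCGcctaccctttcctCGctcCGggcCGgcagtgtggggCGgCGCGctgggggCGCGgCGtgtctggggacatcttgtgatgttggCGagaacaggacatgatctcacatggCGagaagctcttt
DNMT1 (chr19:10194954-10195203, minus strand): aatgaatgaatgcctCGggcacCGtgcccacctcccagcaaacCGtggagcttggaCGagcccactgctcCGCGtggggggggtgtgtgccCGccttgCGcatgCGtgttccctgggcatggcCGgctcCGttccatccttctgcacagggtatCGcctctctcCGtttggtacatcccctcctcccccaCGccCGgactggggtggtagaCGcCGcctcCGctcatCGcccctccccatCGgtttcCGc
TET1 (chr10:68560087-68560336, plus strand): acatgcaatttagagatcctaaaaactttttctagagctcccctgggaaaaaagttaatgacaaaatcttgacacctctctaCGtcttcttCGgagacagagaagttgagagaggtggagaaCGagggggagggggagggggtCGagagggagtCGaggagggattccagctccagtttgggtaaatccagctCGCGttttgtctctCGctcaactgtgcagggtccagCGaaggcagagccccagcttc

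The PAX5 window held 27 CpG, and 25.6% of the windows of all 18995 protein-coding genes with such a transcript held at least as many. Over 2000 bases before the same start, PAX5 had 116 CpG against a median of 56 over all genes. Among the members, CpG in the 250 bases ranged from 9 in TET1 to 37 in TET3, against a median of 18 over all genes. DNMT1 had 21, DNMT3A 33, DNMT3B 23, UHRF1 28, TET2 34, TDG 22 and MBD2 21 CpG in their windows. TET1 was thus the only member below the median of all genes in this window. Over 2000 bases TET1 with 31, DNMT1 with 45 and TDG with 50 CpG lay below the median of 56. The MANE Select starts of TET1 and TET3 lie upstream of the starts that the deposited table gives for these genes. For DNMT1 the window printed above lies inside the deposited gene, which starts at 10231286 on the minus strand. The windows of DNMT3A, UHRF1 and TET2 also lie inside their deposited genes, and those of TDG and MBD2 do so in part. These are counts of letters in the reference, and methylation itself was not measured in these libraries.

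The 3 libraries held from 44992971 to 49569026 counts in genes, of which the 9 members took from 0.0791% to 0.0806%. Levels are given in TPM, the transcript abundance unit in which a count is divided by the length of the gene's exons and all genes of a library are scaled to 1 fixed total, so that genes of unequal length can be compared. The cells carried the markers of their label. All 7 luminal prostate markers were at 1 TPM or more in every library, with a summed level from 4260.6 to 4287.2 TPM, from 197 TPM for the keratin KRT8 to 1988 TPM for KLK3, which encodes prostate specific antigen. Of 5 neuroendocrine markers only CHGA and SYP reached 1 TPM, with a summed level of the list from 2.66 to 3.24 TPM. The leukocyte markers PTPRC, CD3E and CD79A had from 2 to 4 counts each over the 3 libraries. Of the basal and fibroblast markers, only COL1A1 reached 1 TPM, at 7.09 TPM, while TP63, COL1A2 and DCN had 0 counts. In bulk RNA, fewer cells that express a gene and less RNA of it per cell cannot be told apart.

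All 9 members were expressed, at 1 TPM or more in each library. Their mean levels spanned from 5.70 TPM for TET1 to 112 TPM for DNMT1, with a median of 25.6 TPM. The median was 22.1 TPM over the 12046 protein-coding genes of the nuclear genome at 1 TPM or more in every library. From the highest to the lowest mean TPM the order was DNMT1, TDG, UHRF1, MBD2, TET3, DNMT3B, DNMT3A, TET2 and TET1. In each of the 8 neighbouring pairs of this order, the 3 libraries of the higher gene lay above the 3 of the lower gene. An exact two-sided permutation test of mean log2 TPM gave p = 0.1 for each pair, and 0.1 after Benjamini-Hochberg adjustment over the 8 pairs. This is the smallest p that 3 values against 3 allow, so no pair could pass 0.05. The test left aside that both genes of a pair come from the same libraries. The pairs were also ordered by these same values, so the test decides nothing about them.

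**Figure D1:**
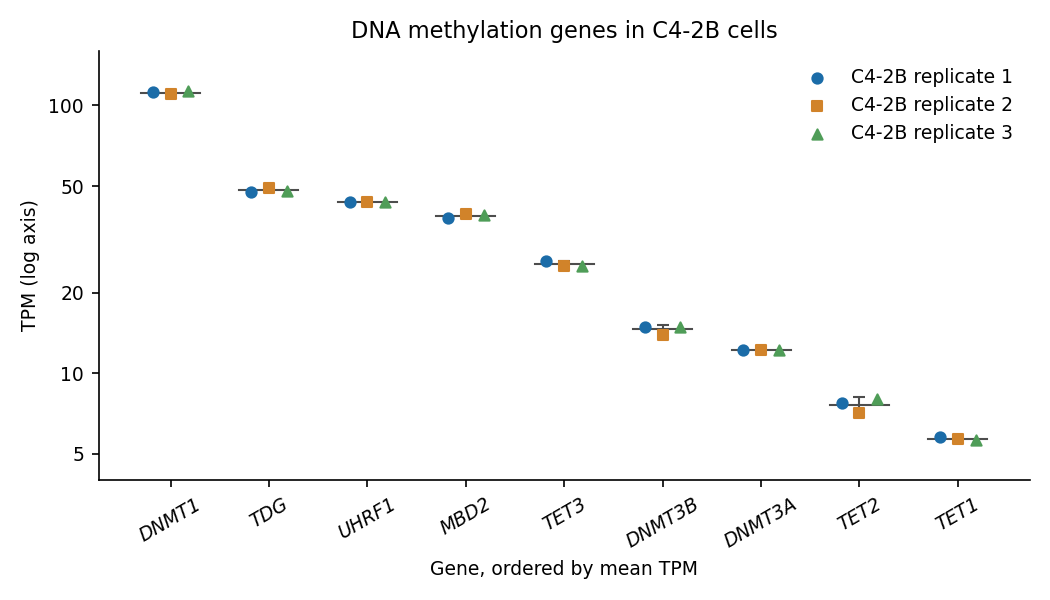
TPM (log axis) of the 9 members in each C4-2B library, with horizontal lines and bars for mean and SD over the 3 libraries. DNMT1 stands at 112 TPM, TDG, UHRF1 and MBD2 lie between 38.8 and 48.2 TPM, and TET1 is lowest at 5.70 TPM.

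To describe maintenance of methylation, DNMT1 and UHRF1 were examined first. DNMT1 (ENSG00000130816, chromosome 19, 10133345 to 10231286, minus strand), the maintenance methyltransferase, was at 112, 110.0 and 113 TPM in replicates 1, 2 and 3. Its mean of 112 ± 1.54 TPM (SD, n = 3) lay above 90.9% of the protein-coding genes just described. It rested on 49423 counts, more than any other member. UHRF1 (ENSG00000276043, chromosome 19, 4903080 to 4962154, plus strand) encodes the protein that binds hemimethylated CpG and brings DNMT1 to it. Its level was 43.8, 43.8 and 43.6 TPM in the 3 libraries, with a mean of 43.7 ± 0.111 TPM (SD, n = 3). The libraries were nearly level for UHRF1, with a range of 0.02 on the log2 scale after library scaling. DNMT1 was higher than UHRF1 in every library, by 2.56 ± 0.04 times in TPM (SD, n = 3). The paralogue UHRF2 was at 21.0 ± 0.0927 TPM (SD, n = 3), so that UHRF1 was 2.08 ± 0.014 times as high by exon length. With the length of the MANE Select transcript in place of all exons this ratio was 0.991, and which paralogue is higher therefore depended on the length used.

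The de novo methyltransferases were far lower than DNMT1. DNMT3A (ENSG00000119772, chromosome 2, 25227855 to 25342590, minus strand) was at 12.3, 12.2 and 12.2 TPM, with a mean of 12.2 ± 0.0255 TPM (SD, n = 3). DNMT3B (ENSG00000088305, chromosome 20, 32762385 to 32809356, plus strand) was at 14.9, 14.0 and 14.9 TPM, with a mean of 14.6 ± 0.554 TPM (SD, n = 3). Replicate 2 was the lowest of the 3 libraries for DNMT3B, and each of its libraries lay above those of DNMT3A. DNMT3B was 1.19 ± 0.044 times as high as DNMT3A in TPM (SD, n = 3). DNMT1 took 80.6% ± 0.14 of the summed TPM of the 3 methyltransferases, DNMT3B 10.5% ± 0.25 and DNMT3A 8.82% ± 0.12 (SD, n = 3 each). DNMT1 was 4.17 ± 0.036 times as high as DNMT3A and DNMT3B together (SD, n = 3). With MANE Select lengths this ratio was 6.65, and DNMT1 took 86.9% of the sum and DNMT3A and DNMT3B 6.53% each. DNMT3L, a cofactor without enzyme activity that is known from germ cells, had 0, 3 and 0 counts.

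Among the TET dioxygenases, TET3 was the main transcript. TET3 (ENSG00000187605, chromosome 2, 73986404 to 74108176, plus strand) was at 26.3, 25.3 and 25.2 TPM, with a mean of 25.6 ± 0.648 TPM (SD, n = 3). TET2 (ENSG00000168769, chromosome 4, 105145875 to 105279816, plus strand) was at 7.77, 7.10 and 8.05 TPM, with a mean of 7.64 ± 0.492 TPM (SD, n = 3). TET1 (ENSG00000138336, chromosome 10, 68560656 to 68694482, plus strand), which carries a CXXC domain that binds unmethylated CpG, was at 5.77, 5.71 and 5.63 TPM. Its mean was 5.70 ± 0.0685 TPM (SD, n = 3), above 17.9% of expressed protein-coding genes, where TET2 was above 22.7% and TET3 above 55.0%. No TET gene overlapped another in any library. TET3 took 65.7% ± 0.83 of the summed TET level in TPM, TET2 19.6% ± 1.0 and TET1 14.7% ± 0.3 (SD, n = 3 each). TET3 was 3.36 ± 0.22 times TET2 and 4.49 ± 0.072 times TET1, and TET2 was 1.34 ± 0.093 times TET1 (SD, n = 3 each). With MANE Select lengths these ratios were 1.99, 4.72 and 2.38, and the share of TET2 was 29.4%, that of TET3 58.3% and that of TET1 12.3%, in the same order. The antisense gene TET2-AS1 had 7, 6 and 7 counts and shares no exon bases with TET2.

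Writers were then set beside erasers within each library. The 3 methyltransferases summed to 139, 136 and 140.0 TPM in the 3 libraries, and the 3 TET genes to 39.9, 38.1 and 38.9 TPM. The methyltransferase sum was higher in every library, by 3.56 ± 0.055 times, or 1.83 ± 0.022 on the log2 scale (SD, n = 3), and by 5.34 times with MANE Select lengths. A paired exact permutation over 3 libraries allows no p under 0.25, so no test was made. These sums are of transcripts and say nothing of protein or activity.

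Downstream of the TET enzymes, TDG (ENSG00000139372, chromosome 12, 103965804 to 103988874, plus strand) encodes the glycosylase that removes formylcytosine and carboxylcytosine. It was the second member in order, at 47.6, 49.3 and 47.8 TPM, with a mean of 48.2 ± 0.912 TPM (SD, n = 3). Replicate 2 was highest. The level of TDG exceeded that of all 3 TET genes together by 1.24 ± 0.051 times in TPM (SD, n = 3). The glycosylase MBD4, which removes thymine from mismatches at CpG, was at 41.0 ± 1.27 TPM (SD, n = 3), and TDG was 1.18 ± 0.034 times as high. A processed pseudogene, TDGP1, had 4, 4 and 0 counts. Reads that align to several places were not counted, so the count of TDG can lack reads that its copies share.

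MBD2 (ENSG00000134046, chromosome 18, 54151601 to 54224788, minus strand), the methyl-CpG reader of the set, was at 38.1, 39.2 and 39.1 TPM, with a mean of 38.8 ± 0.630 TPM (SD, n = 3). Replicate 1 was lowest, by little. Relative to another reader, MBD2 was 1.26 ± 0.046 times as high as MBD1 in TPM (SD, n = 3). MBD3, which replaces MBD2 in a separate form of NuRD and binds methylated CpG poorly, was at 44.9 ± 1.51 TPM, and MBD2 was 0.864 ± 0.042 times its level (SD, n = 3 each). With MANE Select lengths the ratio of MBD2 to MBD1 turned to 0.648, while that to MBD3 was 0.718 and kept its direction.

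Since a gene's level per length rests on the length assigned to it, the members were recomputed with MANE Select transcripts. The union of exons exceeded the reference transcript 1.86 times for DNMT1, 1.72 times for TET2 and 1.54 times for TDG, and by less for the others. TET1 was the exception, with a union of 9288 bases against a transcript of 9612 bases. Because the denominator changes as well, the level of DNMT1 went to 140.2 ± 1.94 TPM and that of TET2 to 8.87 ± 0.572 TPM, while TET3 went to 17.6 ± 0.430 TPM and TET1 to 3.72 ± 0.0415 TPM (SD, n = 3 each). The order of the 9 means stayed the same. DNMT3A and DNMT3B were then both at 10.5 TPM (SD 0.0148 and 0.398) and overlapped between libraries. The separation of DNMT3B from DNMT3A thus depended on the length used. The counts remained those over all exons, so this alternative can overstate genes with much signal outside the reference transcript. It can also understate TET1 and TET3, whose reference transcripts start upstream of the deposited genes, where no reads were counted for them. Ratios of the methyltransferases to the TET genes with these lengths carry both limits.

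**Figure D2:**
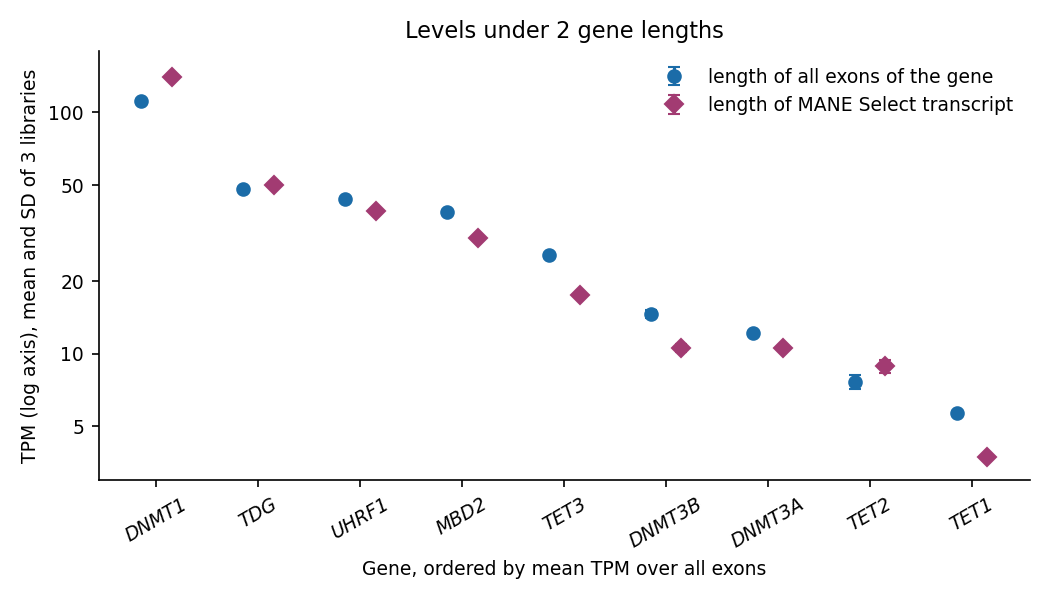
TPM (log axis) of the 9 members with the length of all exons (circles) and of the MANE Select transcript (diamonds), mean and SD of 3 libraries. DNMT1 goes from 112 to 140.2 TPM, and DNMT3B and DNMT3A meet at 10.5 TPM.

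The spread between replicates was examined next, to describe how far the level of each member varied among these libraries. As it may be technical and no other group was analysed, it does not set how small a difference from another line could be seen. After library scaling, the members' range between the highest and the lowest library went from 0.02 for DNMT3A and UHRF1 to 0.18 for TET2 on the log2 scale, with a median of 0.05. The median was 0.08 over the 8330 genes whose summed counts lay within those of the members. A chi-square test of each gene's 3 counts against the scaled library sizes was run over all genes with at least 30 counts, and adjusted over all of them. It called 1 of the 9 members, TET2, where 17.3% of the 22229 genes tested were called. Among the 8330 genes in the members' range of counts, 22.5% were called. With 9 genes, 1 call is no result about the members as a set.

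For TET2, the chi-square was 15.5 and the adjusted p was 0.00686. Its deviation from the mean of the 3 libraries was 2.21% in replicate 1, -7.11% in replicate 2 and 4.90% in replicate 3. The coefficient of variation of TET2 was 6.30%, against 2.30% from counting reads and 3.25% from counting read pairs. TET3 had an adjusted p of 0.0775 and DNMT1 of 0.142, and both had an unadjusted p under 0.05. The other 6 members had adjusted p-values from 0.391 for DNMT3B to 0.946 for DNMT3A. Mates of a pair were counted as separate reads, which inflates the chi-square. When each chi-square was divided by 2, 0 of the 9 members were called by the chi-square test, 1 had an unadjusted p under 0.05 (TET2, p = 0.0206, adjusted p 0.332), and 0.792% of all genes were called. The call of TET2 was also lost without replicate 2 (adjusted p 0.669) and without replicate 3 (0.0613), while without replicate 1 the adjusted p was 0.00810. The fibroblast marker COL1A1, with 1069, 1005 and 1065 counts and an adjusted p of 0.00898, was also lowest in replicate 2, while COL1A2 and DCN were at 0 counts. Its part in the spread of TET2 was not tested.

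**Figure D3:**
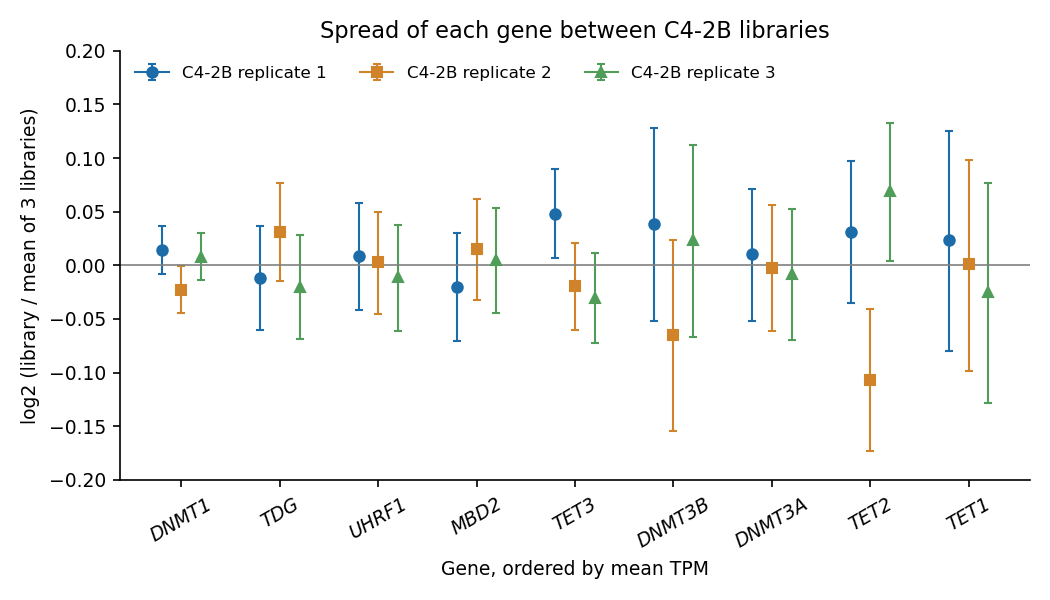
Difference of each C4-2B library from the mean of the 3 libraries (log2 of counts scaled by TMM), with 95% Poisson intervals of the counts as bars. TET2 shows the widest spread, 0.18 from replicate 2 to replicate 3, and DNMT3A and UHRF1 the narrowest, 0.02.

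To place the members in their pathway, 54 related genes in 6 lists were examined, and 51 of them were at 1 TPM or more in every library. The partners of the methyltransferases had a median of 35.0 TPM, with 8 of 9 expressed. PCNA, the replication clamp that tethers DNMT1, was highest at 432 ± 4.53 TPM, followed by USP7, a deubiquitinase that stabilises DNMT1, at 82.6 ± 1.65 TPM (SD, n = 3 each). LIG1, the ligase of lagging strand replication, was lowest of the expressed partners at 16.0 ± 0.757 TPM (SD, n = 3), and DNMT3L was below it. The remodeller HELLS and its partner CDCA7, which open nucleosomes for methylation, were at 35.5 and 23.2 TPM.

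Base excision and demethylation genes had a median of 23.4 TPM, with 14 of 15 expressed. APEX1, the endonuclease that cuts abasic sites, was at 256 ± 4.37 TPM and PARP1, the sensor of strand breaks, at 220.0 ± 4.19 TPM (SD, n = 3 each). NEIL1, a glycosylase for oxidised bases, was the lowest expressed gene of the list at 8.38 ± 0.535 TPM (SD, n = 3). Of the TET partners, OGT, which attaches N-acetylglucosamine to proteins and binds TET2 and TET3, was at 118 ± 0.933 TPM, and HMCES, which binds abasic sites in single-stranded DNA, at 73.0 ± 2.46 TPM (SD, n = 3 each). CXXC5, a CXXC zinc finger protein, was at 28.4 ± 0.240 TPM (SD, n = 3). CXXC4, which carries the CXXC domain that TET2 lacks, had 2, 6 and 0 counts.

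The 8 other readers and MBD family genes were all expressed, with a median of 25.7 TPM. MBD3 was highest at 44.9 TPM, then ZBTB33, a zinc finger protein that binds methylated DNA, at 34.2 ± 1.46 TPM, and lowest were ZBTB38 at 16.3 ± 0.568 TPM and MBD5 at 2.26 ± 0.188 TPM (SD, n = 3 each). The NuRD complex was the most abundant list in its median, 90.6 TPM, with all 11 subunits expressed. The deacetylase HDAC1 was at 183 ± 3.01 TPM and the scaffold subunit MTA2 at 141 ± 1.88 TPM, while HDAC2 was at 28.4 ± 0.841 TPM and MTA3 at 11.9 ± 0.331 TPM (SD, n = 3 each). Genes that supply S-adenosylmethionine, the methyl donor of the DNMT enzymes, had a median of 40.6 TPM. AHCY, which clears the product S-adenosylhomocysteine, was at 304 ± 6.51 TPM and SHMT2, of mitochondrial one-carbon metabolism, at 199 ± 0.624 TPM (SD, n = 3 each). Lowest were MTRR, which reactivates methionine synthase, at 16.7 ± 1.09 TPM and the liver synthetase MAT1A at 3.27 ± 0.208 TPM, against 167 ± 4.14 TPM for MAT2A, the synthetase of most other tissues (SD, n = 3 each).

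**Figure D4:**
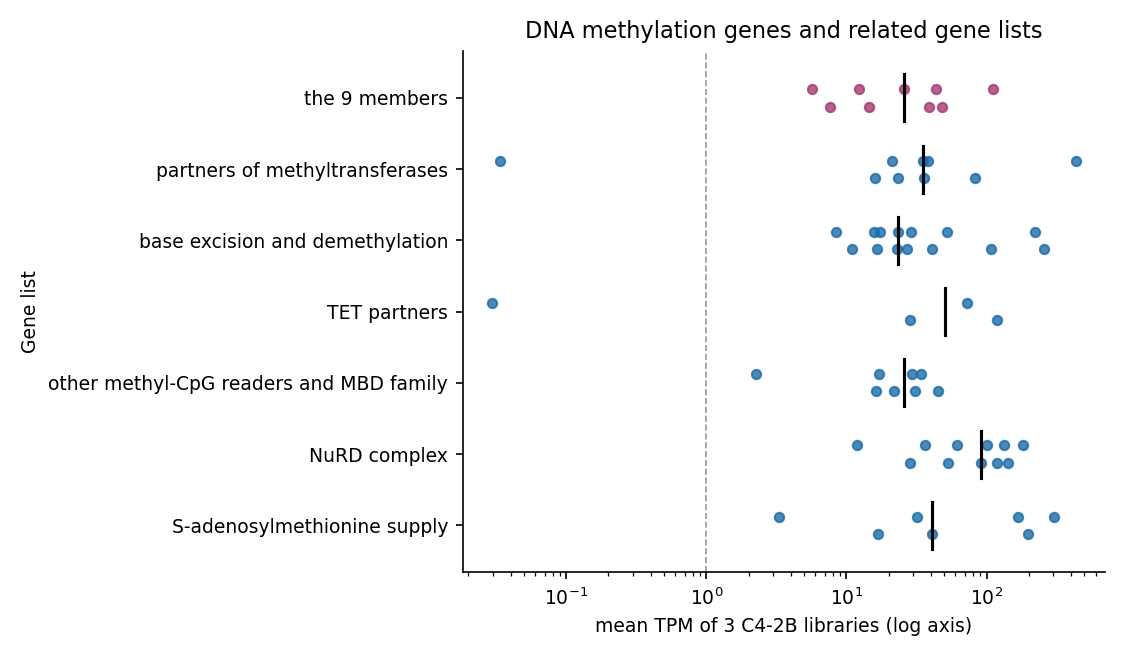
Mean TPM of 3 libraries (log axis) for each gene of the 9 members and the 6 related lists, with black bars at list medians and a dashed line at 1 TPM. A gene with 0 counts is not drawn. DNMT3L and CXXC4 are the points below the line.

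In the chi-square test between libraries, 13 of the 51 genes of the 6 lists with enough counts were called, beside 17.3% of all genes. By list these were 1 of 8 partners, 4 of 14 excision genes, 0 of 3 TET partners, 3 of 8 readers, 0 of 11 NuRD genes and 5 of 7 methyl donor genes. Unadjusted p-values under 0.05 were found for 25 of the 51 genes, among them 1 TET partner and 3 NuRD genes. The share of such p-values over all genes was not computed, so these counts are no result about the lists. The widest range among the called genes was that of GADD45A, a stress gene tied to demethylation, at 0.37 on the log2 scale, with 449, 640 and 465 counts. With the chi-square divided by 2, 0 of the 51 genes were called by the chi-square test, beside 0.792% of all genes. In this setting 11 of the 51 had an unadjusted p under 0.05, again without a share over all genes to compare.

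PAX5 itself, the gene whose promoter the study follows, had 4, 4 and 8 counts, at 0.0382 ± 0.0172 TPM (SD, n = 3). TET1, the lowest member, lay above PAX5 in every library.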

How the data were processed

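The labels describe total RNA, depleted of ribosomal RNA and sequenced as read pairs. The submitters' processing notes name STAR 2.7.0f and GRCh38 for alignment. The authors deposited unnormalised read counts for every gene, made by featureCounts 1.6.3 on Ensembl release 90 with neither a strand nor a pair option in the header, beside the exon length of each gene. Symbols were matched by Ensembl identifier for 57532 of 58302 genes, and gene types and transcripts came from GENCODE release 44. TPM was computed from counts and deposited lengths over all genes. TMM factors (edgeR 4.0.16) scaled the library sizes of the chi-square test, which had 2 degrees of freedom, a minimum of 30 counts and Benjamini-Hochberg adjustment over all genes, with 0.05 as threshold. It compares libraries, not conditions. The test was checked on simulated Poisson counts, also with mates counted separately. Replicate variation beyond counting was not simulated, so the check does not cover it. Intervals are 95% Poisson, cover counting error only and are too narrow, as mates were counted separately. Of the members, only DNMT1 shares exon bases with another gene (69 bases, with S1PR2), where reads were not counted.

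Total counts were 44992971, 49569026 and 46232076. Groups came from sample titles. The 9 members and the lists were chosen with earlier results of these data known. Genes named from each list are those with the 2 highest and 2 lowest means, those called with the chi-square divided by 2 (0 genes), and PAX5, overlapping genes and pseudogenes. UHRF2, MBD4 and MBD1 are partners in ratios to members, of which 13 were computed. HELLS, CDCA7, MAT2A, GADD45A and the cell markers shown were picked after their values were seen. Some genes that this rule or the lists name are not reported here.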

Additional observations from a re-analysis of the deposited data

How the results depend on the processing

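All 9 members stayed at 1 TPM or more under each alternative run, and 7 or 8 neighbouring pairs did not overlap. The members were ordered anew by their means in each run, so the pairs can differ from those above. The number of such pairs therefore decides nothing about the order. With TPM scaled over nuclear protein-coding genes only, the levels of all 9 members rose, DNMT1 to 177.3 TPM and TET1 to 9.05 TPM. Their order stayed the same, so the absolute levels depend on which genes make up the total. The methyltransferase to TET ratio, 1.83 on the log2 scale, was 2.42 with MANE Select lengths and 1.41 with CPM. The ratio of DNMT1 to DNMT3A and DNMT3B, 2.06, was 2.73 and 2.35 in the same settings. Both settings change the length behind each level. Lengths outside overlaps and leaving out a replicate moved both ratios by less than 1 SD. CPM, counts scaled to the library total with no regard to length, placed TET3 second and DNMT3B below TET2. The number of members that differ between libraries, 1, was 0 with the chi-square divided by 2 and from 0 to 1 without 1 replicate. It stayed 1 under other scalings and minimum counts. For the whole table the 3835 genes became 176 with the chi-square divided by 2, and from 1383 to 2323 without 1 replicate, where fewer libraries are compared. Over the alternatives the adjusted p of TET2 went from 0.00725 to 0.669. With 3 libraries of 1 group, no difference between conditions can be shown. No paired analysis was possible between groups because the counts come from 1 group only, and ratios between genes were taken within each library. The alternatives were listed with earlier results of these data known.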
